A study of Homo sapiens with 12 samples.

Results

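MHC class II molecules carry peptides to the cell surface for helper T cells, and the genes described here are those that code for them and for their transcriptional regulators. The members were taken by gene symbol, and 9 of 9 were found among 12931 gene rows. HLA-DRA, HLA-DRB1, HLA-DRB5, HLA-DQB1 and HLA-DPA1 code for chains of the surface molecules, HLA-DMA for a chain of the peptide editor HLA-DM, and CD74 for the invariant chain. CIITA and RFX5 code for regulators. RNA sequencing was done on 12 libraries of WM1366, an established human cutaneous melanoma line, in 3 groups of 4. The control group had a control diet, and the groups called combination R1 and combination R2 had a diet with inhibitors of MEK and of CDK4/6. The series text describes xenograft tumours that were progressing, while the sample labels describe cells in culture medium with palbociclib at 0.1 µM and PD0325901 at 1 nM for all libraries, control included. The difference between R1 and R2, the host strain, and whether replicates of a group came from separate tumours are not given in the sources used here, so p-values measure only the spread between these libraries, which may be technical.

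In class II presentation, an alpha and a beta chain pair in the endoplasmic reticulum around CD74, which blocks the groove until HLA-DM exchanges its last fragment for a peptide. Transcription depends on a factor assembly at the promoter, in which the RFX complex (RFX5, RFXAP and RFXANK) binds the X box and NF-Y binds the Y box. CIITA does not bind DNA itself but joins this assembly as coactivator, and is the usual limiting factor. It is made from alternative promoters, one of them induced by interferon gamma. Class II expression is normally a property of antigen-presenting cells, and a part of melanomas express it too.

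The promoter stretches are shown because RFX5 and CIITA act on the other members there. RefSeq promoter windows (GRCh38.p14, 250 bases before to 50 after a start) were matched by symbol for 7 of the 9 members. They were searched on both strands for CNAGNNACNGA, the letters shared by the X boxes of 7 class II promoters, and for TGATTGG, the Y box letters, and the matches shown do not overlap. The X letters were read from promoters that include those of HLA-DRB1, HLA-DRB5, HLA-DQB1 and HLA-DMA. Their presence therefore supports nothing, and neither does the rarity given next. In 4 members the X letters were followed by the Y letters within 40 bases on the transcribed strand, a pair that 7 of 35116 windows (0.0199%) held, against 3.35% with the X letters and 6.95% with the Y letters on either strand. HLA-DPA1 had the X letters alone. The capitals mark the matches, and each stretch lies on the minus strand of chromosome 6 before the start site.
HLA-DRB1 (chr6:32589880-32589939): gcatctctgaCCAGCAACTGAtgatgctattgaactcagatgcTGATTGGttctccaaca
HLA-DRB5 (chr6:32530363-32530422): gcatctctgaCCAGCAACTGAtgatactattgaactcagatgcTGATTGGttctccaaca
HLA-DQB1 (chr6:32666731-32666790): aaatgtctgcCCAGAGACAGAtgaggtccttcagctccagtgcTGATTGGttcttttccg
HLA-DMA (chr6:32953162-32953222): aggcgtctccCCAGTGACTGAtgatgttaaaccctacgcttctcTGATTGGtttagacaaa
HLA-DPA1 (chr6:33073700-33073760): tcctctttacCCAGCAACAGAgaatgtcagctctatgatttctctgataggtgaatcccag
HLA-DRB1 and HLA-DRB5 share both matched stretches and the length of the spacing between them, 22 bases, though not every letter of it. HLA-DQB1 has the same length of spacing. HLA-DMA has 23 bases. The windows of CD74 held neither set of letters, and 1 of the windows of RFX5 held the Y letters.

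Values are the authors' reads per gene scaled to each library, close to CPM, and are given as mean ± SD with n = 4. Recovered reads numbered 20003891 to 39009384 per library. The words rose and fell are kept for genes whose adjusted p was under 0.05 in limma on log2(value + 0.5), with Benjamini-Hochberg adjustment over all 12931 genes. In bulk RNA, more cells of a type and more RNA per cell cannot be told apart. Every listed gene exceeded 1 CPM in at least 4 libraries. HLA-DQB1 and HLA-DRB5 did so in no control library and HLA-DQB1 in R1 alone, so their listing already implied a difference. Of the melanoma and melanocyte markers 3 of 9 were measured, CSPG4, PMEL and MITF, with a summed value of 77.2 to 87.6 in control, 101 to 156 in R1 and 45.9 to 59.6 in R2. The 3 did not move alike, as PMEL rose in R1 and R2, MITF fell in both, and CSPG4 rose in R1 and fell in R2. SOX10, MLANA, TYR and the others had no row among the listed genes, so they were not analysed here.

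The first comparison asked how class II expression differed between R1, on the inhibitor diet, and control. The chains, HLA-DMA and CD74 rose (7 of 9 members, against 22.4% of all genes rising). Without HLA-DQB1 and HLA-DRB5, whose listing rested on the groups where they were high, 5 of 7 rose, and the regulators CIITA and RFX5 did not pass. The ranges of R1 and control did not overlap for those 7 (20.8% of all genes had R1 ranges wholly above control and 19% wholly below). By limma 0 members fell (21.4% of all genes), with 1 at an unadjusted p under 0.05, 0 by edgeR and 1 by DESeq2 (RFX5). The median log2 fold change of the members was 2.96, or 1.52 over the 7 that exceeded 1 CPM in every control library, beside 0.01 over all genes.

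HLA-DRA, the invariable alpha chain of HLA-DR, was at 3.29, 2.65, 4.95 and 4.73 in control replicates 1 to 4 and at 88.4, 127, 127 and 101 in R1. The lowest R1 library thus lay far above the highest control library, and the ratio of means was 28.4 (log2 fold change of 4.68 with SE 0.21, adjusted p = 7.2e-10). HLA-DRB1, the main DR beta chain, was at 1.76, 1.75, 4.17 and 2.36 in control and at 135, 200.4, 195 and 137 in R1. This was a 66.4-fold ratio of means (log2 fold change 5.84, SE 0.25, adjusted p = 5.2e-10). HLA-DRB5, a second DR beta chain, had 3 reads in all control libraries together and none in control replicate 4, against 1139 reads in R1. Its R1 values were 8.11, 10.8, 10.3 and 8.87, and the ratio to control was 275 (95% counting interval 93.8 to 1335). Reads of HLA-DRB1 and HLA-DRB5, which are close paralogs, cannot be assigned with certainty, and summed as 1 gene they gave a log2 fold change of 5.90.

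HLA-DQB1, the beta chain of HLA-DQ, also had 3 control reads, in replicates 1 and 3. It was at 2.11, 4.87, 4.67 and 3.58 in R1, with a ratio to control of 105 (95% counting interval 35.9 to 514). The fitted changes of HLA-DRB5 (4.23) and HLA-DQB1 (2.96) depend on the added 0.5 and give no bound. With 0.1 in its place they were 6.19 and 4.84. These intervals cover counting error only. HLA-DPA1, the alpha chain of HLA-DP, was at 5.37, 6.27, 9.69 and 8.61 in control and at 71.2, 85.2, 84.6 and 70.2 in R1. It rose 10.4-fold (log2 fold change 3.32, SE 0.24, adjusted p = 1.1e-07), with the tightest R1 group of the members (coefficient of variation 10.5%). HLA-DPA1 overlaps HLA-DPB1 on the other strand, and the kit does not mark strand, so reads in the overlap cannot be told apart.

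The loading genes HLA-DMA and CD74 also rose, with smaller fitted changes. HLA-DMA was at 4.85, 5.30, 8.91 and 7.62 in control and at 17.5, 23.6, 21.3 and 16.3 in R1, a 2.95-fold ratio (log2 fold change 1.52, SE 0.18, adjusted p = 1.8e-05). BRD2, which overlaps HLA-DMA on the opposite strand, was at 364 ± 19.0 in control and 310 ± 21.9 in R1 (log2 fold change -0.23, adjusted p = 0.059). CD74 was at 623, 686, 1092 and 910.4 in control and at 1549, 2611, 1988 and 1508 in R1. Its ratio was 2.31 (log2 fold change 1.21, SE 0.19, adjusted p = 0.00019). CD74 was thus abundant in control, where the chains it accompanies were low.

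CIITA was at 7.09, 10.05, 9.90 and 9.24 in control and at 15.5, 14.7, 10.4 and 9.61 in R1. R1 replicates 1, 2 and 3 lay above all control libraries, replicate 3 by a small margin, and replicate 4 lay within their range. The ratio of means was 1.39, and the change did not pass (log2 fold change 0.43, 95% interval 0.03 to 0.84, adjusted p = 0.079). It passed without R1 replicate 4 (0.55, adjusted p = 0.042), and the adjusted p ranged up to 0.214 over the other settings. CIITA overlaps DEXI on the other strand, so reads in the overlap cannot be told apart here either. DEXI was at 15.8 ± 0.884 in control, 22.1 ± 2.36 in R1 and 20.9 ± 2.74 in R2. It rose in both (adjusted p = 0.0067 and 0.031). RFX5 was at 197, 193, 195 and 205 in control and at 196, 151, 157 and 169.7 in R1, where replicate 1 alone lay in the control range. It did not pass (log2 fold change -0.24, SE 0.09, adjusted p = 0.056), but did without R1 replicate 1 (-0.31, adjusted p = 0.015) and by DESeq2 (-0.25, adjusted p = 0.023). Over the other settings its adjusted p ranged up to 0.228.

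**Figure D1:**
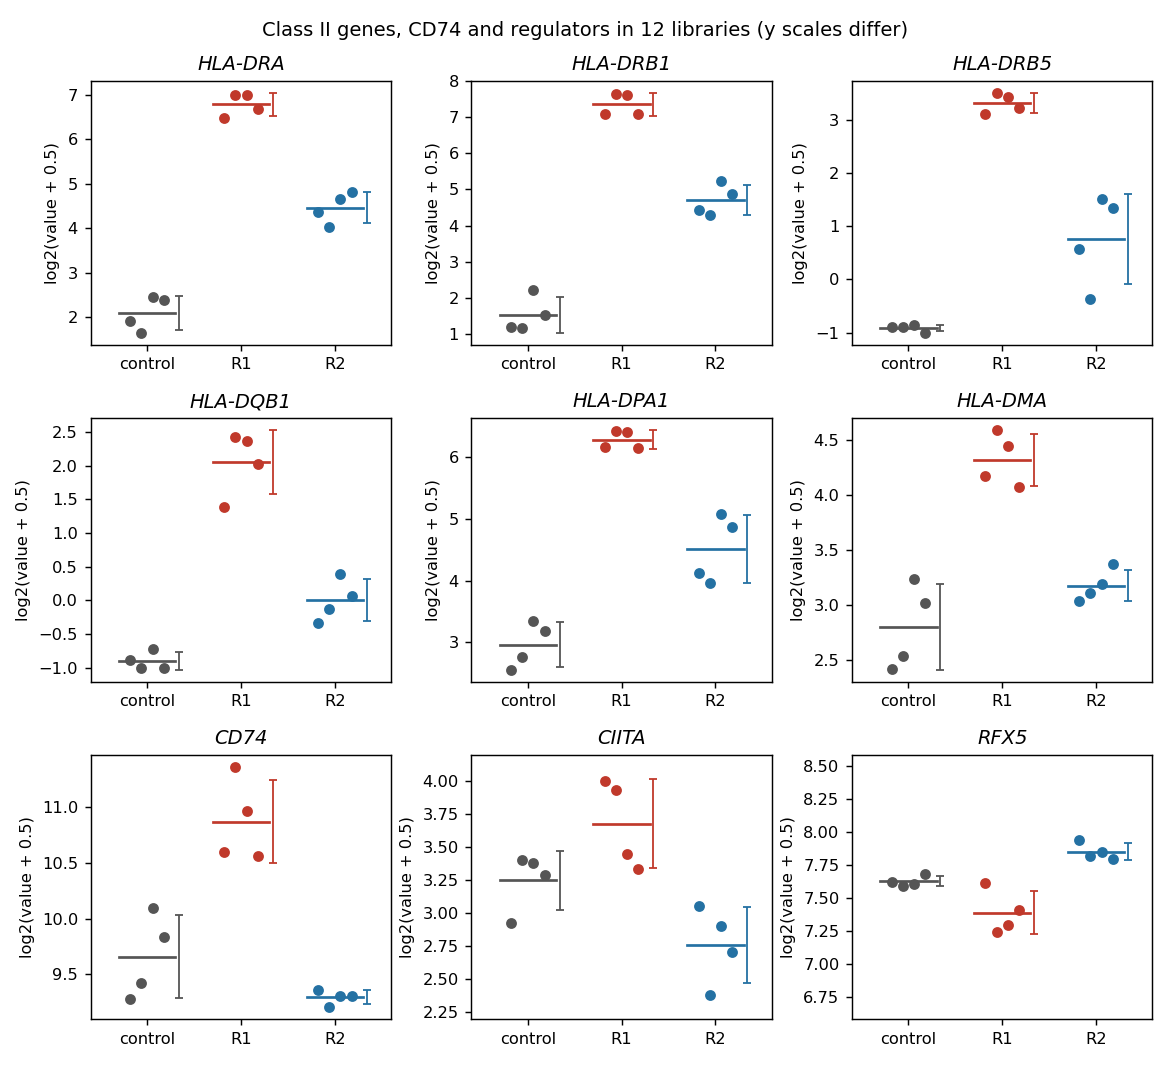
Level of each member in every library as log2(value + 0.5), with group means (lines) and SD (bars, n = 4) for control, R1 and R2; y scales differ between panels. The 5 chain genes are ordered R1, R2, control with no overlap, while CD74 and CIITA are lowest on average in R2 and RFX5 is highest in R2.

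Combination R2, also on the inhibitor diet, was compared with the same control libraries to the same end. The 5 chain genes rose and HLA-DMA, CD74, CIITA and RFX5 did not pass, so 5 of 9 members were called upward (13.6% of all genes). By limma 0 fell (14.8% of all genes), with 1 at an unadjusted p under 0.05 (CIITA) and 0 by edgeR and by DESeq2. The ranges of R2 lay wholly above control for 6 members (18% of all genes, with 16.8% wholly below), namely the 5 chains and RFX5. The median log2 fold change of the members was 0.90, the fitted value of HLA-DQB1, beside 0.03 over all genes. Over the 7 members that exceeded 1 CPM in every control library it was 0.38, and 3 of these 7 rose.

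HLA-DRA was at 20.1, 15.7, 24.6 and 27.8 in R2 replicates 1 to 4, 5.65 times the control mean (log2 fold change 2.36, SE 0.21, adjusted p = 1.4e-06). HLA-DRB1 was at 21.3, 18.9, 36.9 and 28.6, a 10.5-fold ratio (log2 fold change 3.18, SE 0.25, adjusted p = 4.7e-07). HLA-DPA1 was at 17.0, 15.0, 33.2 and 28.7, a 3.14-fold ratio (log2 fold change 1.55, SE 0.24, adjusted p = 0.00022). For these genes R2 replicates 3 and 4 lay above replicates 1 and 2, and the lowest R2 library exceeded the highest control library. HLA-DRB5 reached 0.989, 0.279, 2.34 and 2.02 with 159 reads in all (ratio to control 42.9, 95% counting interval 14.4 to 210.4). HLA-DQB1 reached 0.291, 0.419, 0.811 and 0.551 with 57 reads (ratio 15.4, interval 5.01 to 76.8).

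HLA-DMA was at 7.70, 8.15, 8.64 and 9.87 in R2, overlapping control through its replicate 3 (log2 fold change 0.38, 95% interval -0.02 to 0.77, adjusted p = 0.142). CD74 was at 659, 592, 635 and 634, within and below the control range (log2 fold change -0.36, 95% interval -0.77 to 0.05, adjusted p = 0.181). CIITA was at 7.79, 4.70, 6.96 and 6.01, with 3 libraries below every control library (log2 fold change -0.49, 95% interval -0.89 to -0.08, adjusted p = 0.069). It was called lower without control replicate 1 (-0.60, adjusted p = 0.043) and with the R2 and control libraries fitted alone (adjusted p = 0.048). The highest adjusted p over the settings was 0.176. RFX5 was at 246, 225, 230.0 and 222, above every control library by a small margin (log2 fold change 0.22, SE 0.09, adjusted p = 0.092), and was called with the R2 and control libraries fitted alone (adjusted p = 0.030). Its highest adjusted p was 0.209.

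**Figure D2:**
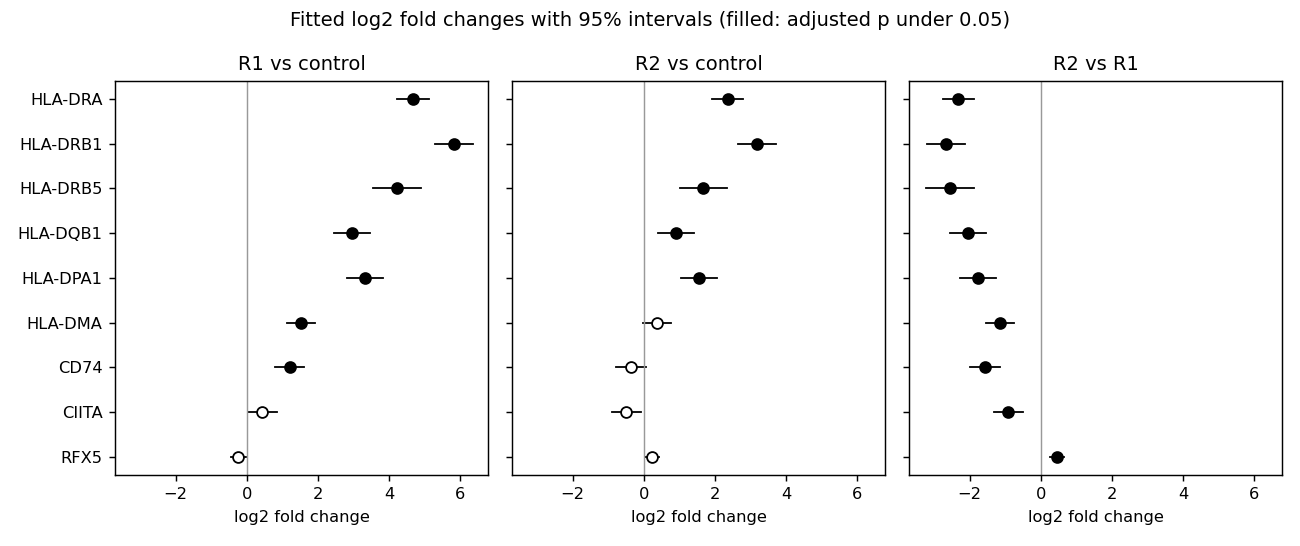
Fitted log2 fold change on the log2(value + 0.5) scale with its 95% interval for each member in the 3 comparisons; filled points passed at an adjusted p under 0.05. The chain genes pass in each panel, HLA-DMA and CD74 pass in R1 against control but not in R2 against control, and CIITA and RFX5 pass in R2 against R1 alone.

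Set against R1, R2 was lower for all 7 class II genes and CIITA, and higher for RFX5, with no overlap of ranges for any of the 9 members. The listing of HLA-DQB1 rested on R1 alone, and that of HLA-DRB5 on R1 and 2 R2 libraries. Without them, 6 of 7 members fell and 1 rose. In all genes 24% fell and 22.8% rose in this comparison, and 20.3% and 19.1% had ranges wholly below or above. HLA-DRB1 was 6.32 times lower by means in R2 (log2 fold change -2.66 with SE 0.25, adjusted p = 1.8e-06), while HLA-DRA was 5.03 times lower (-2.32, SE 0.21, adjusted p = 1.1e-06). CD74 was 3.04 times lower (-1.57, SE 0.19, adjusted p = 2.1e-05), HLA-DMA 2.29 times lower (-1.14, SE 0.18, adjusted p = 0.0002) and CIITA 1.97 times lower (-0.92, SE 0.19, adjusted p = 0.0013). RFX5 was 1.37-fold higher (0.46, SE 0.09, adjusted p = 0.0012). The order of group means was therefore R1, R2, control for the chains. For CD74 it was R1, control, R2 and for HLA-DMA R1, R2, control, with the 2 lower neighbours not separated by the test in either. For CIITA it was R1, control, R2 and for RFX5 R2, control, R1, and in both neither neighbouring pair passed, so that only the ends of the order differed.

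The relation of the class II genes to CIITA was read from log2 differences between genes within each library, chosen after the values were seen, over 12 tests adjusted together. The log2 level of HLA-DRA minus that of CIITA was -1.14 ± 0.40 in control, 3.10 ± 0.47 in R1 and 1.71 ± 0.33 in R2. It was higher by 4.25 in R1 and by 2.85 in R2 than in control, with no overlap (exact permutation test, two-sided, p = 0.0286 each, the smallest that 4 against 4 allow, adjusted p = 0.0381). HLA-DRA alone already separated the 3 groups, and every test of the 12 with HLA-DRA gave this smallest p. The adjusted p depends on how many such tests were entered, so these tests add little to the levels of HLA-DRA. In R2 HLA-DRA was higher than in control while the mean of CIITA was lower. CD74 minus CIITA was 6.41 ± 0.30 in control, 7.19 ± 0.41 in R1 and 6.54 ± 0.23 in R2. Its differences from control, 0.78 in R1 (exact permutation p = 0.0571, adjusted p = 0.0686) and 0.13 in R2 (exact permutation p = 0.543, adjusted p = 0.543), did not pass. CD74 minus CIITA in R2 was 0.65 below R1 (exact permutation p = 0.0857, adjusted p = 0.0935).

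The level of HLA-DRA relative to CD74 was higher than in control too. Scaled to the merged exon length of each gene, HLA-DRA was 0.732% ± 0.102 of CD74 in control, 9.19% ± 1.29 in R1 and 5.42% ± 1.21 in R2. The difference in log2 level was 3.47 for R1 and 2.72 for R2 against control, without overlap (exact permutation p = 0.0286, adjusted p = 0.0381 each). HLA-DMA, scaled likewise, was 1.14% ± 0.0438 of CD74 in control, 1.49% ± 0.142 in R1 and 1.95% ± 0.225 in R2. Against RFX5, the log2 level of HLA-DRA was higher by 4.92 in R1 and 2.14 in R2 than in control (exact permutation p = 0.0286, adjusted p = 0.0381 each). RFX5 was lowest on average where HLA-DRA was highest, in R1, and highest in R2.

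**Figure D3:**
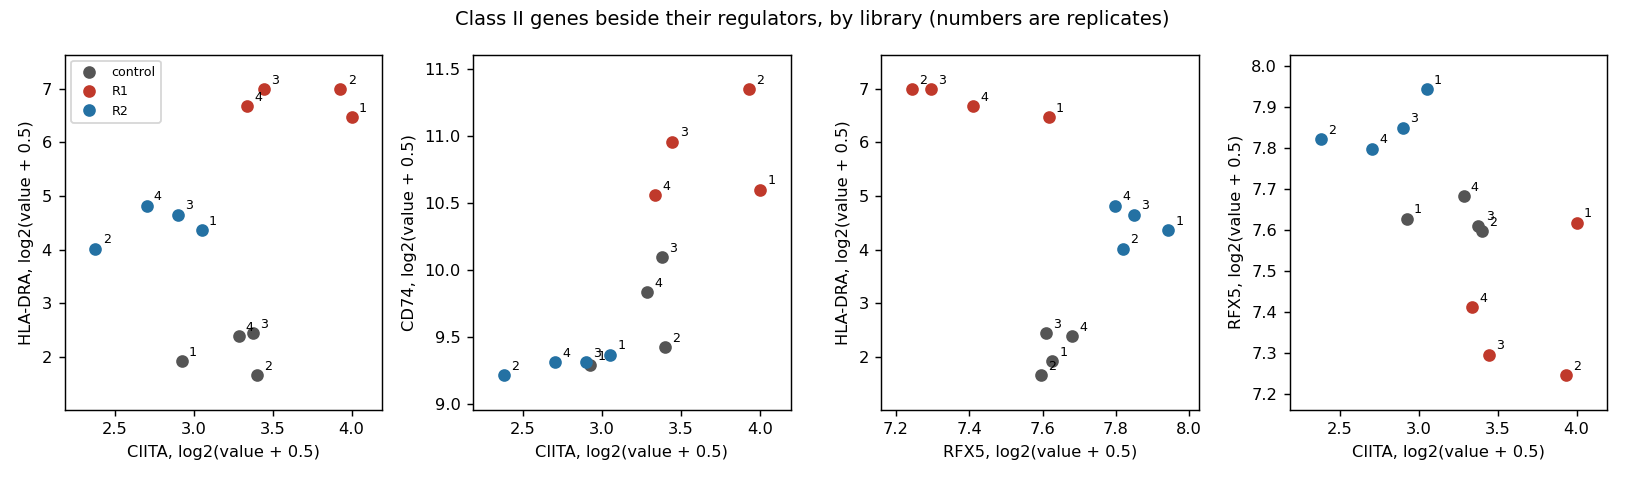
Level of 1 gene against another on the log2(value + 0.5) scale, 1 point per library, coloured by group, with the replicate number beside it. HLA-DRA lies in 3 separate bands for control, R2 and R1, and CIITA differs between R1 and R2 without overlap while control overlaps both.

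Inside the control and R1 groups the class II genes ranked the libraries much alike, and CIITA ranked them otherwise. Of the 7 class II genes, 7 were highest in control replicate 3, and 7 had R1 replicates 2 and 3 as their 2 highest libraries. In control, HLA-DRB5 had 1, 1, 1 and 0 reads and HLA-DQB1 had 1, 0, 2 and 0 in replicates 1 to 4. Their order in control therefore carries almost no information. In R1, CIITA was highest in replicate 1, which was among the 2 lowest for 7 of 7 class II genes. In R2, replicate 3 was among the 2 highest for 7 of 7 and replicate 2 was the lowest for 5 of 7 class II genes, and CIITA was also lowest in replicate 2. CD74 ranked the 4 R2 libraries in the same order as CIITA, with replicate 1 highest, while replicate 1 was among the 2 lowest for the other 6 class II genes. Control replicate 2 had the highest CIITA and was among the 2 lowest for 7 of 7, again counting HLA-DRB5 and HLA-DQB1 with their few reads. No correlation with CIITA or RFX5 was computed, since the libraries form separate groups of 4.

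Scaled per kilobase of merged exons, CD74 was the most abundant member in each group (417 in control, 964 in R1 and 317 in R2). RFX5 came next in control (48.5) and R2 (56.7). In R1 HLA-DRB1 (136) and HLA-DRA (86.6) stood above RFX5 (41.4) on this scale, and CIITA (0.760) was the lowest. In control HLA-DMA (4.78), HLA-DRA (3.05), HLA-DPA1 (2.63) and HLA-DRB1 (2.04) lay between RFX5 and CIITA (0.548). The merged length of CIITA, 16539 bases, includes many alternative exons and lowers its scaled level.

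Beyond the members, 2 more class II genes were measured, and both rose in R1 and in R2. Shares of all genes that rose and fell, for reading the list counts, were 22.4% and 21.4% in R1 and 13.6% and 14.8% in R2. For R2 against R1 they were 22.8% and 24%. Of the class II structural list 9 of 16 genes were measured, and 9 rose in R1, 7 rose in R2 against control and 9 were lower in R2 than in R1. HLA-DPB1, the DP beta chain, was at 1.53 ± 0.673 in control, 37.6 ± 9.15 in R1 and 7.50 ± 2.63 in R2 (log2 fold changes 4.27 and 1.99 against control, adjusted p = 4.8e-08 and 0.00012). HLA-DMB, the partner of HLA-DMA, was at 0.438 ± 0.139, 4.19 ± 0.593 and 1.23 ± 0.539 (2.32 and 0.83, adjusted p = 3.4e-06 and 0.016), with R2 overlapping control. No control value of HLA-DMB exceeded 0.584, so its listing too already implied a difference. The counts of the structural list include it with HLA-DRB5 and HLA-DQB1.

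The factors that meet at the class II promoter had small fitted changes. Of 8 promoter factors 0 rose and 2 fell in R1 (limma; 1 and 3 at an unadjusted p under 0.05, 0 and 2 by edgeR, 0 and 3 by DESeq2), with a median log2 fold change of 0.07. In R2 1 rose and 1 fell (median 0.21). CREB1, which binds next to RFX at the X box, fell in R1 (28.1 ± 6.43 against 44.0 ± 0.641, log2 fold change -0.67, adjusted p = 0.0024) and was at 52.7 ± 5.99 in R2. NFYA, an NF-Y subunit, rose in R2 (140.4 ± 25.7 against 94.2 ± 16.3, 0.57, adjusted p = 0.012). NFYC, another subunit, fell in both (-0.41 in R1, adjusted p = 0.014, and -0.38 in R2, adjusted p = 0.035). RFXAP and RFXANK, the partners of RFX5, named here outside the rule, did not pass in either (adjusted p of 0.26 to 0.485).

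Among 11 coactivators and chromatin factors 1 rose and 3 fell in R1 (median log2 fold change -0.11), and 3 rose and 0 fell in R2 (median 0.27; by limma 5 and 1 at an unadjusted p under 0.05, 3 and 0 by edgeR, 4 and 0 by DESeq2). KAT2B, an acetyltransferase, fell in R1 (17.6 ± 1.90 against 32.2 ± 4.65, -0.85, adjusted p = 8.1e-05). HDAC1, a histone deacetylase, rose there (181 ± 31.7 against 123.4 ± 3.87, 0.54, adjusted p = 0.0026). CREBBP, an acetyltransferase that CIITA recruits, was at 152 ± 11.8 in R2 against 92.0 ± 17.2 (0.74, adjusted p = 0.0013), and SMARCA4, a chromatin remodeller, rose by 0.27 (adjusted p = 0.031). The mean levels of these factors differed less than 2-fold between groups, far less than those of the chains.

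On the interferon gamma route to CIITA 4 of 8 measured genes rose and 1 fell in R1 (median log2 fold change 0.29), and 2 rose and 1 fell in R2 (median -0.08). JAK2, a kinase of the receptor, rose in both (6.51 ± 1.46 in R1 and 5.58 ± 0.484 in R2 against 3.44 ± 0.651). IFNGR2, a receptor chain, rose in R1 (50.9 ± 3.86 against 29.98 ± 5.60, 0.77, adjusted p = 0.037). IRF1, which acts at the inducible CIITA promoter, was at 22.2 ± 1.68 in R1 and 17.6 ± 6.27 in control (0.39, adjusted p = 0.143), and fell in R2 to 9.72 ± 1.58 (-0.77, adjusted p = 0.014). IRF2, which binds the same kind of site, fell in R1 (-0.62, adjusted p = 0.002). IFNG and SOCS1 had no row among the listed genes, so they were not analysed here.

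Of 9 measured genes of peptide loading and traffic 5 rose and 2 fell in R1 (median log2 fold change 0.52). In R2 2 rose and 0 fell (median 0.11; by limma 2 and 1 at an unadjusted p under 0.05, 2 and 0 by edgeR, 2 and 1 by DESeq2). The proteases moved in both directions. CTSL, cathepsin L, rose in R1 (100.4 ± 21.0 against 31.4 ± 6.08, 1.66, adjusted p = 3.0e-06) and CTSD, cathepsin D, fell (68.5 ± 13.7 against 141 ± 27.02, -1.04, adjusted p = 0.00013). CTSF, cathepsin F, rose in R1 (28.1 ± 3.62) and R2 (21.6 ± 5.08) from 11.2 ± 3.79 (adjusted p = 0.00025 and 0.0056). AP1M1, a sorting adaptor subunit, rose in R1 (0.61, adjusted p = 0.0014).

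**Figure D4:**
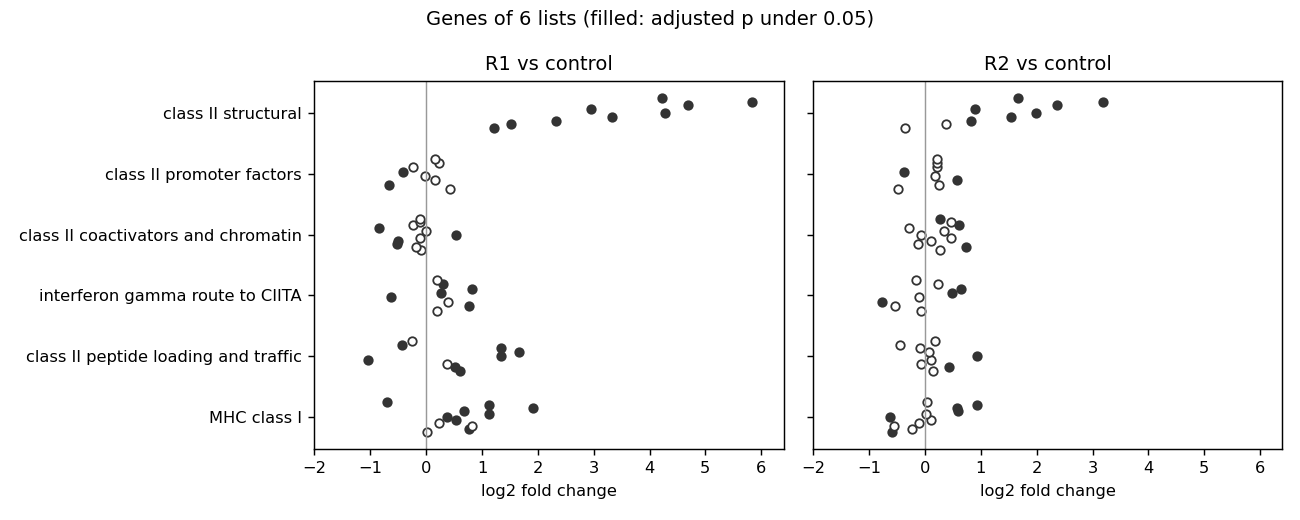
Fitted log2 fold change against control of each measured gene of 6 lists, for R1 (left) and R2 (right); filled points passed at an adjusted p under 0.05, and vertical scatter within a list only separates the points. The class II genes reach 5.84 in R1 and 3.18 in R2, while the promoter factors lie between -0.67 and 0.57 in both panels.

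Most markers of other cells that express class II had no row among the listed genes, so they were not analysed here. Of 20 leukocyte and antigen-presenting cell markers 3 were measured, with a summed value of 11.7 to 14.7 in control, 21.5 to 36.8 in R1 and 14.6 to 18.9 in R2, and none of the 3 was at 0 in a whole group. LAPTM5, a lysosomal protein of blood cells, was at 0.708 ± 0.191 in control, rose to 4.48 ± 3.34 in R1 (1.84, adjusted p = 0.0005) and fell to 0.0928 ± 0.105 in R2 (-1.03, adjusted p = 0.032). No control value of LAPTM5 exceeded 0.990, so it was listed through R1 alone and its listing already implied a difference. In R2 it lay between 0.0291 and 0.250, a few reads per library. CSF1R, a macrophage receptor, fell in R2 (0.539 ± 0.141 against 1.98 ± 0.904, adjusted p = 0.019). CD83 rose in R1 and R2 (19.0 ± 1.65 and 16.2 ± 1.91 against 10.97 ± 0.896). Of 9 endothelial markers 4 were measured, with sums of 133 to 172 in control, 375 to 499 in R1 and 126 to 157 in R2. TIE1 made up most of this sum (139 ± 14.6, 394 ± 54.6 and 135 ± 14.0). EGFL7 rose in R1 (16.2 ± 3.32 against 3.61 ± 1.04, adjusted p = 1.3e-06) and fell in R2, where it was listed at 0 to 0.0291 (adjusted p = 3.4e-08). PECAM1 fell in R2 (0.697 ± 0.213 against 2.26 ± 1.33, adjusted p = 0.033). Of 6 fibroblast markers 2 were measured, with sums of 222 to 320, 79.5 to 150 and 96.5 to 323. The part of other cell types in the class II values was not tested.

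The genes most like the class II profile (the mean log2 level of the chains, HLA-DMA and CD74) were ranked by Pearson r over the 12 libraries among 10392 genes with a mean of at least 5. As all 12 libraries fall into the same 3 groups, r mainly ranks genes by their group means, and no test was made. HLA-DPB1 came first (r = 0.994), and among the next were LAMA4, a laminin chain (0.987), NEIL2, a DNA repair enzyme (0.982), and LAMB3, another laminin chain (0.982). The genes most like CIITA were MPPE1 (0.962), GFPT2, an enzyme of hexosamine synthesis (0.945), GSAP (0.942), CD163L1 (0.938) and the locus RP11-879F14.2 (0.932). No gene named for one profile was named for the other, which says little, as only 5 genes were kept of each ranking. GFPT2 was at 18.4 ± 3.44 in control, 81.6 ± 35.8 in R1 and 5.86 ± 2.43 in R2, the order of CIITA, while LAMA4 was at 0.564 ± 0.198, 79.8 ± 33.2 and 4.04 ± 1.45, the order of the chains.

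By GENCODE 29 (GRCh38) the class II chains and HLA-DMA lie in the MHC on chromosome 6, from HLA-DRA (32439842 to 32445046) to HLA-DPA1 (33064569 to 33080775). CD74 lies on chromosome 5 (150401637 to 150412929), CIITA on chromosome 16 (10866222 to 10943021) and RFX5 on chromosome 1 (151340640 to 151347357). CD74, CIITA and RFX5 thus lie on other chromosomes than the chains, and an effect of gene position was not tested. The values are per gene symbol, so transcripts from the separate CIITA promoters cannot be told apart.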

How the data were processed

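RNA was sequenced from 12 WM1366 libraries after RNeasy extraction and TruSeq RNA v2 library preparation, per the labels. The submitters' processing notes name STAR, edgeR and the build GRCh38, and their versions, the annotation and the scaling are not given in the sources used here. The authors deposited 1 scaled signal value per gene symbol and library. Division by a constant found for each library gave whole reads for 100% of values, within 0.001 reads. Depth was 20003891 to 39009384 such reads per library.

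Groups came from the sample titles. The main test was limma 3.58.1 in R 4.3.3 (empirical Bayes with a mean-variance trend) on log2(value + 0.5), with 3 group means over all 12 libraries, two-sided, Benjamini-Hochberg over 12931 genes, called at an adjusted p under 0.05. It was tested on simulated data. No further filter was applied. Fold values are ratios of group means without the added 0.5, except for HLA-DRB5 and HLA-DQB1 against control, where they are ratios of summed reads to summed scaled depth. Alternatives were other pseudocounts, scalings and filters, edgeR 4.0.16 and DESeq2 1.42.0 on the recovered reads, a replicate block, each library left out, and HLA-DRB1 summed with HLA-DRB5. Counting intervals (95%) are exact (Clopper-Pearson), and ratios between genes used an exact permutation test over libraries. Gene positions and merged exon lengths (protein-coding transcripts) are from GENCODE 29, and promoter sequences from RefSeq.

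The members and lists were chosen with earlier results of these data known. The text names the 9 members, at most 4 called genes of each list with the smallest p, and the 5 genes most like the class II profile and CIITA. Of the genes most like the class II profile, 1 is not reported here.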

Additional observations from a re-analysis of the deposited data

Results flagged for a closer look

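For 3 members the mean change from control had opposite signs in R1 and R2, and the difference between those changes, which is the R2 against R1 contrast as the control libraries cancel, passed in limma. CIITA was 0.43 above control in R1 and 0.49 below it in R2 on the log2 scale, neither of which passed, and the difference was -0.92 (adjusted p = 0.0013). CD74 rose by 1.21 in R1 and was at -0.36 in R2, where it did not pass, with a difference of -1.57 (adjusted p = 2.1e-05). RFX5 went the other way, with -0.24 in R1 and 0.22 in R2, neither called, and a difference of 0.46 (adjusted p = 0.0012). For each of the 3 the R1 and R2 ranges did not overlap. No library stood apart from the other 3 of its group by Dixon's criterion in any of the 27 member and group pairs.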

How the results depend on the processing

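Over 23 alternative settings, 590 of 597 log2 fold changes of single members kept their direction and their side of the threshold, and 7, all of CIITA or RFX5 against control, became called in the direction they had. None reversed. The number of members called upward was 7 in R1 and 5 in R2 against control, and 1 upward and 8 downward in R2 against R1, in each of the 22 settings that keep the 9 members apart, except where CIITA or RFX5 crossed. The number called downward, 0 in the fit reported, was 1 in R1 against control by DESeq2 and with the replicate block, and 0 to 1 with each library left out. In R2 against control it was 1 with the 2 groups fitted alone and 0 to 1 with each library left out. The cause was not tested. With the replicate number as a block, RFX5 in R1 had an adjusted p of 0.0481, and no other member changed its call. The numbers were not taken as pairing the libraries, as not every same-numbered pair correlated above 0.1. Deviations of same-numbered libraries correlated at -0.31 to 0.387 for R1 with control, -0.216 to 0.0851 for R2 with control and 0.0742 to 0.133 for R2 with R1, where 3, 2 and 6 of 8 libraries correlated best with their own number. The fitted changes of HLA-DRB5 and HLA-DQB1 depended on the added constant, at 3.34 to 8.13 and 2.17 to 6.79 in R1. Their 3 control reads each limit the ratio, and a bound of 3 reads is 0.0728 to 0.158 in value.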

Other observations

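The stretch of chromosome 6 from HLA-DRA to the end of HLA-DPB1 (32439842 to 33087201) also holds 6 measured genes that are not class II genes, looked up after the values were seen. Of these, 4 rose in R1 (22.4% of all genes) and 3 rose in R2 against control (13.6% of all genes). They were TAP1 and TAP2, the peptide transporter of class I presentation, and PSMB9, an immunoproteasome subunit, in both groups, and PSMB8, another such subunit, in R1. TAP1 went from 11.3 ± 1.35 in control to 44.7 ± 8.42 in R1 and 17.2 ± 1.83 in R2, and TAP2 from 25.4 ± 4.09 to 56.8 ± 11.4 and 50.6 ± 15.9. PSMB8-AS1 and BRD2 did not pass in either. Of the class I list, which includes TAP1, TAP2, PSMB8 and PSMB9, 7 of 11 measured genes rose and 1 fell in R1 (22.4% and 21.4% of all genes). In R2, 3 rose and 2 fell (13.6% and 14.8% of all genes). NLRC5, the class I counterpart of CIITA, was at 15.7 ± 2.18 in control, 20.4 ± 2.54 in R1 and 9.98 ± 1.45 in R2, the same order of groups as CIITA. NLRC5 rose in R1 (log2 fold change 0.37, adjusted p = 0.044) and fell in R2 (-0.63, adjusted p = 0.0041).

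Within the control group, the level of HLA-DPA1 varied with a coefficient of variation of 26.8% and that of CD74 with 26.0%, while HLA-DPA1 as a share of CD74, scaled to length, lay between 0.601% and 0.659%. The same share lay between 2.27% and 3.25% in R1 and between 1.77% and 3.65% in R2. A narrow share in control was not particular to HLA-DPA1, as that of HLA-DMA lay between 1.10% and 1.19%. The control share of HLA-DRA lay between 0.599% and 0.818% and that of HLA-DRB1 between 0.413% and 0.617%. Of the 11 measured genes within 1 Mb of CIITA, 3 rose and 3 fell in R1 (22.4% and 21.4% of all genes) and 4 rose in R2 (13.6% of all genes).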
